A study of Mus musculus with 9 samples.

Results

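The metallothioneins Mt1 and Mt2 and the antioxidant genes Gclc, Gclm, Nqo1, Hmox1 and Txnrd1 were followed in mouse F9 cells, an embryonal carcinoma line. Members were the probe sets whose only platform gene symbol was a member's. This gave 8 of 12422 non-control probe sets, 2 for Nqo1 and 1 for each of the other 6 genes, or 7 of 8251 named genes. Cells were given retinoic acid (RA, 0.5 µM), trichostatin A (TSA, an inhibitor of histone deacetylases, 0.07 µM) or the ethanol vehicle, each for 24 h, and RNA of 3 samples per group was hybridised to Affymetrix arrays. Nothing in the labels places the replicates in different dishes, and the p-values therefore rest on a spread that may be technical only.

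Metallothioneins are small cysteine-rich proteins that bind zinc and copper, and the metal-sensing factor MTF-1 drives their genes through metal response elements. The other members belong to the response to oxidants and electrophiles. Their best-known activator is NRF2 (gene Nfe2l2), which KEAP1 marks for degradation in unstressed cells and which, paired with small Maf proteins, binds antioxidant response elements. Mt1 and Mt2 also respond to oxidants, and Hmox1 is repressed by BACH1 until haem releases it.

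Promoter windows of 300 bases (250 before and 50 after an annotated start, RefSeq, GRCm38.p6) were matched by symbol for 5 of the 7 genes, Mt1, Mt2, Gclm, Nqo1 and Txnrd1, and not for Gclc and Hmox1. Txnrd1 had 3 windows. Both strands were searched for TGCACNC or TGCGCNC (metal response element), TGACNNNGC (antioxidant response element) and TGACTCA (AP-1 site). A match was present in 25.7%, 12.4% and 5.20% of the 32851 windows. A match describes letters and not a bound site. The sequences below show where these letters lie in 4 of the genes, in capitals and read 5′ to 3′ on the + strand, with positions counted from the start of each window's gene model.

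Mt2 (chr8:94172368-94172617, positions -250 to -1): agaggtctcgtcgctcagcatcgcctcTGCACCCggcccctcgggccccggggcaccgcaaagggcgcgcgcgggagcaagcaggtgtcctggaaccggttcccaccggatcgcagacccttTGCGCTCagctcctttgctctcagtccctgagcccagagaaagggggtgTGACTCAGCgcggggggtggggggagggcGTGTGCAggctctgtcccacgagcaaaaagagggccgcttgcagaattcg
Mt1 (chr8:94179055-94179084, positions -34 to -5): cggtcccgctgTGCACACtggcgctccagg
Mt1 (chr8:94179088-94179117, positions -1 to 29): ctcTGCACTCcgcccgaaaagTGCGCTCgg
Gclm (chr3:122245413-122245442, positions -144 to -115): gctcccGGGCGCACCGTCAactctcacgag
Txnrd1 (chr10:82859104-82859133, positions -102 to -73): ctggatttttGCTTTGTCAttctgacacgg

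The Mt2 window held 4 metal response element matches, of which the 3 before the start are shown, at -223, -128 and, on the reverse strand, -50. Its antioxidant response element and AP-1 matches share their first base at -79 and overlap. The Mt1 window held 3 metal response element matches, first bases -23, 3 and 21, and neither of the other motifs within its bounds. These positions hold for the annotated start only, and whether Mt1 transcription begins there in these cells was not tested. A start further downstream would place the matches at 3 and 21 before it and leave promoter bases unsearched. The absence of an antioxidant response element match in this window therefore does not separate Mt1 from Mt2. In Gclm an antioxidant response element match on the reverse strand (-134) overlapped a metal response element match (-138); a further 2 metal response element matches are not shown. In Txnrd1 a single window held an antioxidant response element match, at -92 on the reverse strand. The Nqo1 window and the other 2 Txnrd1 windows held none of these letters. Bases outside the windows were not searched, so a window without a match does not show that a gene lacks the element.

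Each deposited value is a ratio to the mean of the 3 vehicle arrays of its probe set, so a value of 1 is the vehicle mean and brightness is not known. Vehicle arrays scattered most, with a median SD over probe sets of 0.311 in RA, 0.260 in TSA and 0.413 in vehicle on the log2 scale. Over all probe sets the median log2 change against vehicle was -0.12 for RA and -0.17 for TSA; the changes given here include this shift. The 18S rRNA control probe sets had a median of 0.961 for RA replicate 3, 0.538 for vehicle replicate 1, 2.40 for vehicle replicate 3 and 0.0336 to 0.0730 for the remaining 6 arrays. The cell type label could not be checked against defining markers by level. In summed ratio, 11 measured embryonal carcinoma markers of 12 listed reached 4.64 to 5.46 in RA, 7.71 to 8.52 in TSA and 9.25 to 12.9 in vehicle, 19 endoderm markers of 20 reached 52.9 to 53.5, 24.3 to 35.5 and 15.8 to 22.8 in the same order, and 17 fibroblast markers of 18 reached 17.7 to 22.5, 32.1 to 44.4 and 13.4 to 23.6, with no marker at 0. A sum of ratios can rest on few genes. In mean log2 the endoderm markers were at 0.66 to 0.68 in RA and -0.087 to 0.10 in TSA. The TSA values lay within those of vehicle, -0.27 to 0.25. The fibroblast markers were at 0.33 to 0.75 in TSA and -0.48 to 0.46 in vehicle, which overlapped. In RA 5 of the embryonal carcinoma markers fell and 5 of the endoderm markers rose. In TSA 3 fell and 2 rose. Over all 8251 genes, 1.82% were called in RA and 4.5% in TSA, in either direction.

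Mt1 had the widest range of the 8 probe sets. It was 0.322, 0.234 and 0.332 times the vehicle mean in RA replicates 1 to 3, 2.85, 3.10 and 3.42 in TSA and 1.28, 1.33 and 0.393 in vehicle. The 3 groups did not overlap, with RA lowest and TSA highest, although vehicle replicate 3 lay close to the RA arrays. Mt1 averaged 0.296 ± 0.0540 times the vehicle mean in RA and 3.12 ± 0.288 times in TSA, where vehicle was 1.0 ± 0.527 (SD, n = 3 each). In RNA from whole cultures, fewer cells that express a gene and less RNA per cell cannot be told apart.

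Mt2 followed the same order with a smaller range. It was 0.593, 0.460 and 0.514 in RA, 1.47, 1.48 and 1.67 in TSA and 1.27, 1.15 and 0.582 in vehicle. TSA arrays lay above all others, and vehicle replicate 3 fell within the RA arrays. The group means were 0.522 ± 0.0669 in RA, 1.54 ± 0.115 in TSA and 1.0 ± 0.367 in vehicle (SD, n = 3 each).

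Gclc and Gclm encode the catalytic and the modifier subunit of glutamate-cysteine ligase, which makes the first and rate-limiting step of glutathione synthesis. Gclc was 0.720, 0.647 and 0.539 in RA, 2.02, 2.71 and 1.61 in TSA and 1.26, 1.10 and 0.642 in vehicle. Its TSA arrays lay above all others, and RA and vehicle overlapped through vehicle replicate 3. Gclm was 0.799, 0.632 and 0.682 in RA, 0.790, 0.761 and 0.632 in TSA and 1.36, 0.864 and 0.776 in vehicle. For Gclm all 3 groups overlapped, and only vehicle replicate 1 stood clearly above the rest.

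Nqo1 encodes a quinone reductase that is widely used as a readout of NRF2 activity. Its probe set with the suffix r was 0.751, 0.666 and 0.680 in RA, 2.18, 2.43 and 2.37 in TSA and 1.01, 1.03 and 0.961 in vehicle. These groups were tight and did not overlap. The other, with the suffix f, was 1.02, 0.821 and 0.918 in RA, 3.27, 3.20 and 2.27 in TSA and 1.16, 0.979 and 0.858 in vehicle. Here TSA stood apart while RA and vehicle overlapped. The fitted log2 change in RA was -0.49 for r (95% interval -0.86 to -0.12) and -0.11 for f (95% interval -0.61 to 0.39). These intervals overlap, and the 2 probe sets were not tested against each other. Both probe sets were designed on the same transcript record. The suffix f marks probes that may match several members of a sequence family, and r marks probes chosen with some design rules dropped.

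Txnrd1, the cytosolic thioredoxin reductase, was 0.981, 0.698 and 0.700 in RA, 1.70, 1.75 and 1.67 in TSA and 1.14, 1.07 and 0.791 in vehicle. TSA arrays were again above all others and RA overlapped vehicle. Hmox1, which encodes the inducible haem oxygenase that opens the haem ring, was 1.02, 0.767 and 0.881 in RA, 0.980, 1.06 and 1.07 in TSA and 0.946, 1.10 and 0.951 in vehicle. Its 3 groups overlapped.

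**Figure D1:**
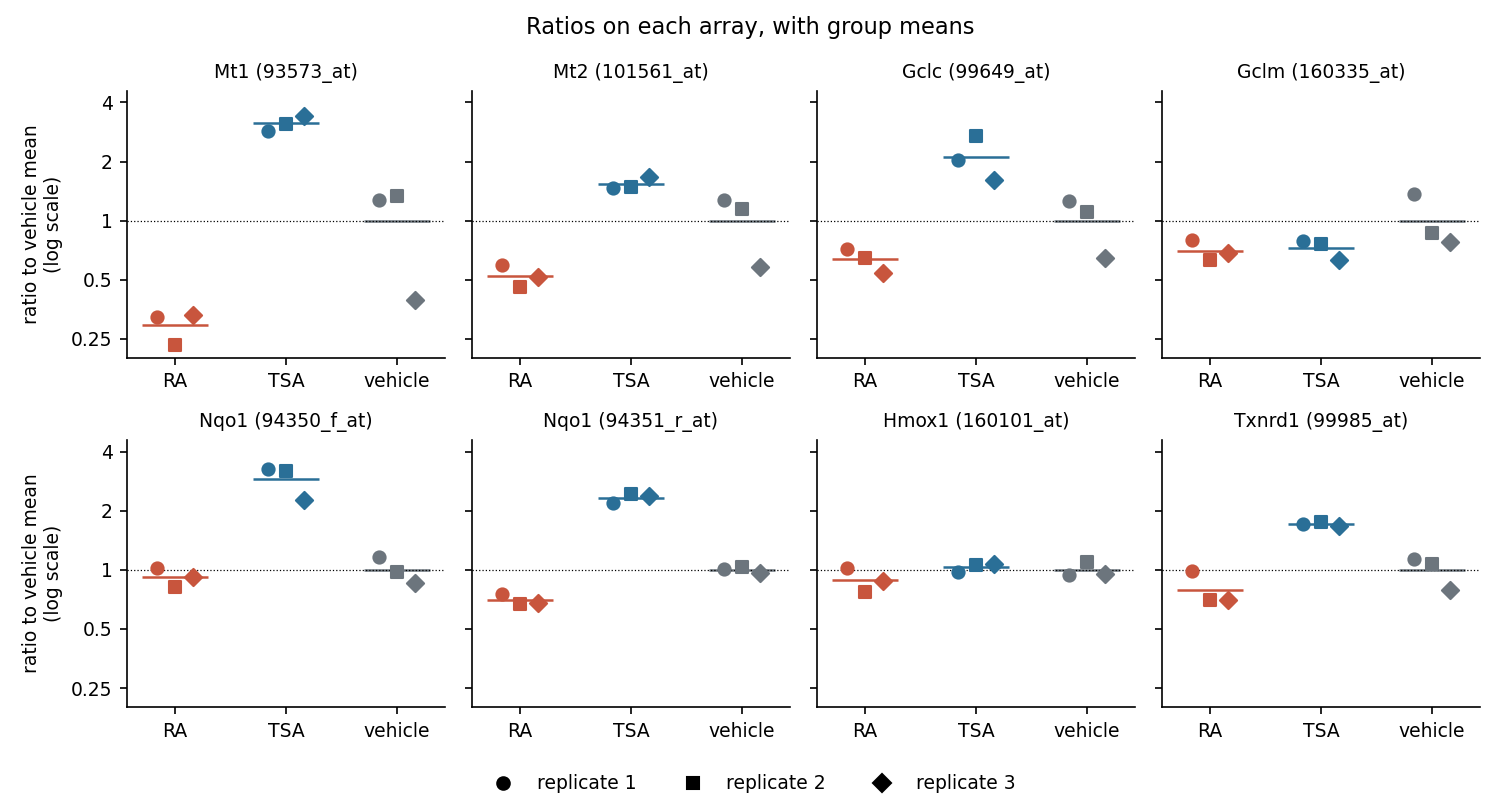
Ratio to the vehicle mean (log scale) of each member probe set on each of the 9 arrays, by group, with marker shapes for replicates 1 to 3, a line at each group mean and a dotted line at 1. TSA arrays stand above RA and vehicle for Mt1, Mt2, Gclc, Nqo1 and Txnrd1, but not for Gclm and Hmox1, and vehicle replicate 3 is low for Mt1, Mt2, Gclc and Txnrd1.

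Comparing TSA with vehicle asks which transcripts deacetylase inhibition changes. Nqo1 rose in TSA, and it was the only member past the test in the fit over probe sets. The log2 change, on log2(ratio + 0.05), was 1.49 ± 0.22 for the f probe set (adjusted p = 0.0112) and 1.18 ± 0.16 for the r probe set (adjusted p = 0.00853; limma, Benjamini-Hochberg over 12422 probe sets, ± SE). That made 2 of 8 member probe sets, against 2.21% of all probe sets called higher and 3.48% in either direction. Both Nqo1 calls were lost without TSA replicate 2, where the same test gave adjusted p of 0.0620 and 0.0546.

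Mt1 had a larger change in TSA than Nqo1, 1.76 ± 0.41 on the log2 scale, and did not pass (limma, adjusted p = 0.0574). In the fit over 8251 genes, where its value is the same, limma gave Mt1 an adjusted p of 0.0459. Without vehicle replicate 3, the array with the highest 18S signal, the change was 1.23 and limma's adjusted p was 0.0265. Gclc changed by 1.06 ± 0.30 (limma, adjusted p = 0.0939) and Txnrd1 by 0.76 ± 0.21 (adjusted p = 0.0977). With the arrays centred on their medians, Mt1 and Txnrd1 passed in TSA (limma, adjusted p = 0.0363 and 0.0473). Most other settings gave no call. Mt1 passed in 4 of 19 alternatives over probe sets and Txnrd1 in 2 of 19. Both counts include the fit with array weights, whose estimation stopped before converging. Without 1 array, Mt1 passed in 1 of 9 fits (limma, adjusted p up to 0.189) and Txnrd1 in 0 of 9 (up to 0.281). Mt2 changed by 0.66 ± 0.29 (adjusted p = 0.246), or by 0.33 without vehicle replicate 3 (adjusted p = 0.345).

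The TSA arrays lay wholly above the vehicle arrays in 6 of 8 member probe sets, against 9.26% of all probe sets. The remaining 2 were Gclm, at -0.40 (95% interval -0.95 to 0.15), and Hmox1, at 0.052 (95% interval -0.36 to 0.46). The median log2 change of the 8 was 0.91, against -0.17 over all probe sets.

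Comparing RA with vehicle, the same 3 vehicle arrays as for TSA, asks which transcripts the retinoid changes. No member passed, 0 of 8 against 1.36% of all probe sets by limma, and 3 of 8 had an unadjusted p under 0.05 (Mt1, Mt2 and the Nqo1 r probe set), against 12.7%. All 8 fitted changes were negative, but that of the Nqo1 f probe set (-0.11) turned to 0.048 when arrays were centred on their medians. Mt1 had the largest, -1.44 ± 0.41 (SE; limma, adjusted p = 0.163), followed by Mt2 at -0.81 ± 0.29 (adjusted p = 0.277), Gclc at -0.57 ± 0.30 (adjusted p = 0.470) and the Nqo1 r probe set at -0.49 ± 0.16 (adjusted p = 0.239). RA arrays lay wholly below vehicle in 2 of 8, Mt1 and the Nqo1 r probe set, against 11.0% of all probe sets. The 8 had a median of -0.47, and all probe sets one of -0.12.

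The RA result for the metallothioneins turned on vehicle replicate 3. Without it Mt1 was lower by -1.98 and passed limma's test (adjusted p = 0.00826), as did Mt2 at -1.14 (adjusted p = 0.0359). Leaving out vehicle replicates 1 and 2 instead gave Mt1 -1.19 and -1.16 (limma, adjusted p = 0.329 and 0.410), and leaving out each RA or TSA array gave adjusted p of 0.237 to 0.413. Without both arrays of highest 18S signal, RA replicate 3 and vehicle replicate 3, the Mt1 change was -2.06 (limma, adjusted p = 0.0248), while Mt2 at -1.13 did not pass (adjusted p = 0.0835). Vehicle replicate 3 also had mean log2 values of 0.252 for the endoderm markers and 0.461 for the fibroblast markers, against -0.271 and -0.0493, and -0.397 and -0.482, on vehicle replicates 1 and 2. The part of 18S signal or of these cell types in the low Mt1 value was not tested.

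Set directly against each other, RA was lower than TSA in Mt1, Mt2, Gclc, Nqo1 and Txnrd1, which were 6 of 8 member probe sets, against 2.21% of all probe sets called lower and 3.91% in either direction. This comparison shares its arrays with those against vehicle and is no independent evidence. Mt1 differed most, by -3.21 ± 0.41 on the log2 scale (95% interval -4.15 to -2.26; limma, adjusted p = 0.00583), and ranked 35th from the lowest of 12422. Nqo1 differed by -1.67 ± 0.16 in the r probe set (adjusted p = 0.00174) and by -1.60 ± 0.22 in the f probe set (adjusted p = 0.00715). Gclc differed by -1.64 ± 0.30 (adjusted p = 0.0210), Mt2 by -1.48 ± 0.29 (adjusted p = 0.0269) and Txnrd1 by -1.08 ± 0.21 (adjusted p = 0.0292). RA arrays lay wholly below TSA in the same 6, against 13.5% of all probe sets.

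Gclm differed between RA and TSA by -0.044 (95% interval -0.59 to 0.51) and Hmox1 by -0.22 (95% interval -0.63 to 0.19). Leaving out 1 array at a time, Mt1 and both Nqo1 probe sets passed in 9 of 9 fits by limma, Gclc in 4, Mt2 in 3 and Txnrd1 in 3. After quantile normalisation only the 2 Nqo1 probe sets passed, and Mt1 had an adjusted p of 0.0800 by limma. The Mt2 call was lost without any single RA or TSA array. That of Txnrd1 was lost without RA replicate 2 or 3, any TSA array or vehicle replicate 2, and that of Gclc without any RA array or TSA replicate 1 or 2. Of 17 fibroblast markers, 4 were higher in TSA than in vehicle and none lower, against 4.5% of all genes called in either direction. Cnn1 (3.18) and Thy1 (3.00) had a single probe set. The probe sets of Col1a1 disagreed (log2 changes 4.31 and 0.59), as did those of Col5a1 (1.78 and 0.095). The part of the fibroblast markers in the differences between RA and TSA was not tested.

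**Figure D2:**
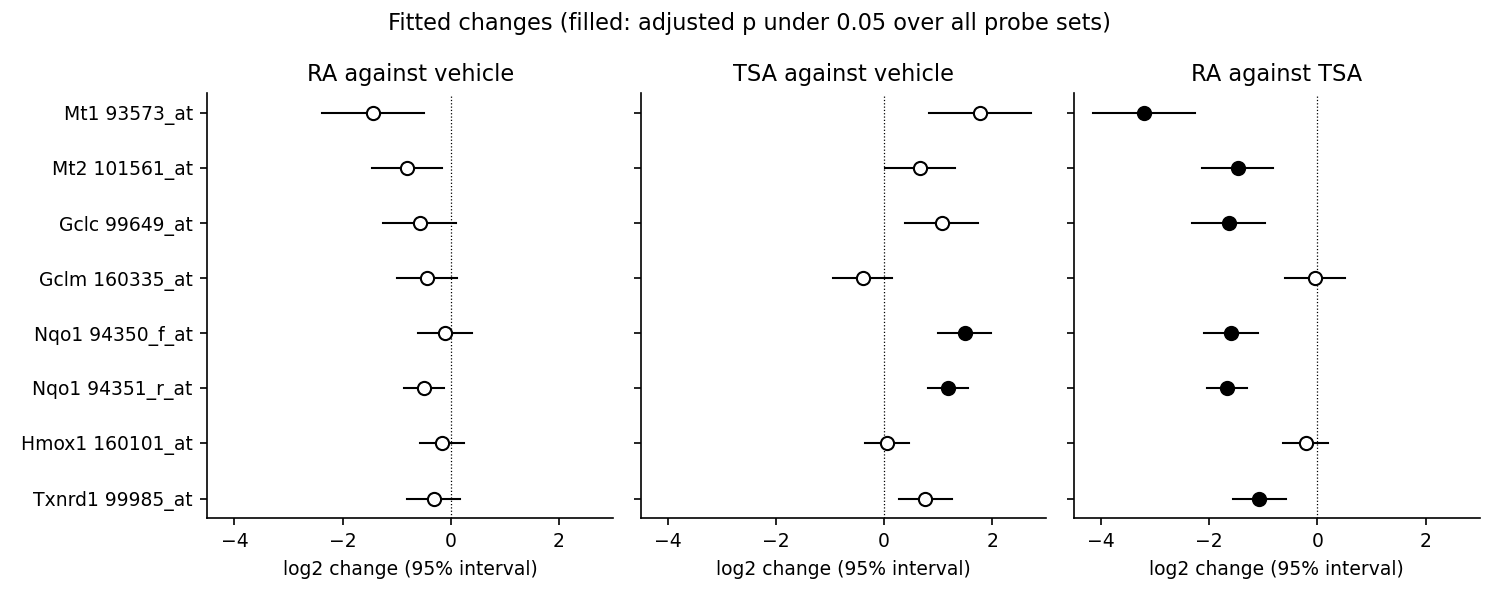
Log2 change with its 95% interval for each member probe set in RA against vehicle, TSA against vehicle and RA against TSA, with filled points where the adjusted p was under 0.05. No point is filled in RA against vehicle, 2 are in TSA against vehicle and 6 in RA against TSA.

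**Figure D3:**
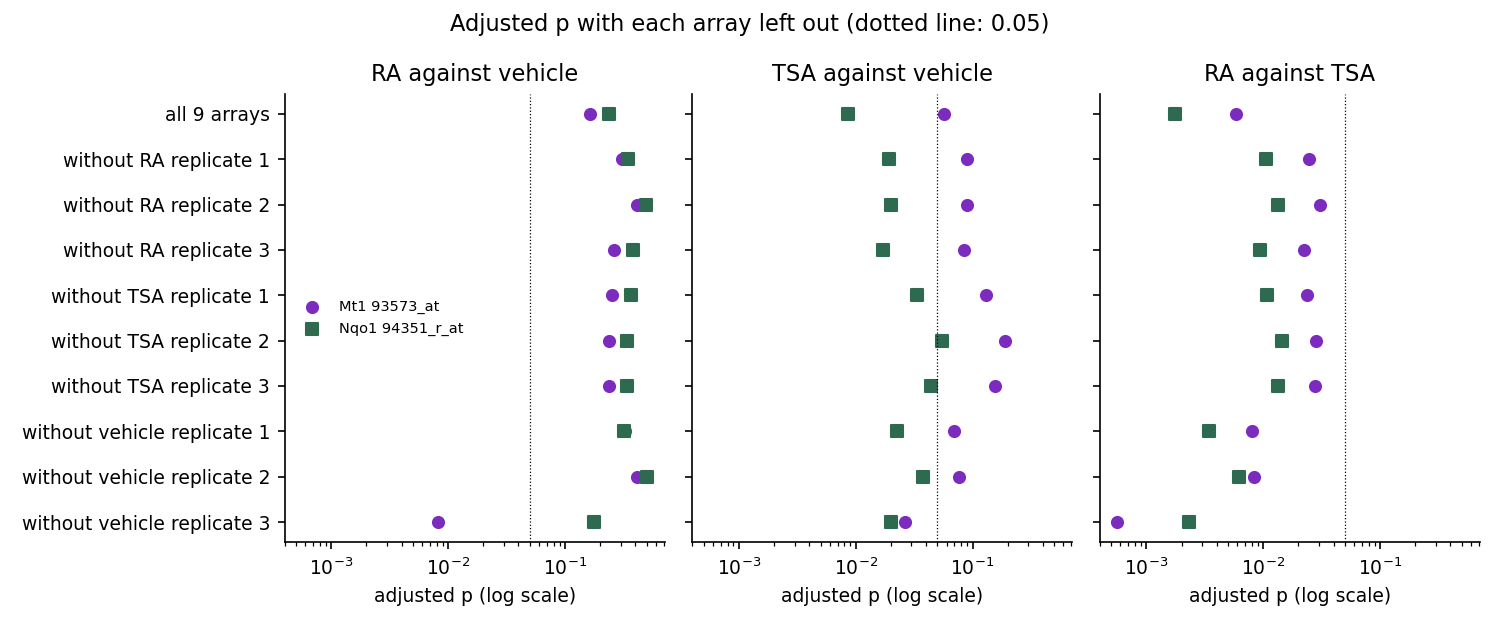
Adjusted p (log scale) of Mt1 and the Nqo1 r probe set with all 9 arrays and with each array left out, with a dotted line at 0.05. In RA against vehicle Mt1 crosses the line only without vehicle replicate 3 (0.00826), and in RA against TSA both stay under it in every fit shown.

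Mt1 and Mt2 are neighbouring genes on chromosome 8, each measured by a single probe set of unknown brightness. Their ratios differed in amplitude, and whether the probe sets respond alike to a given change was not tested. Within each array, the log2 value of Mt1 minus that of Mt2 was -0.79, -0.85 and -0.56 in RA, 0.94, 1.05 and 1.01 in TSA and 0.0056, 0.21 and -0.51 in vehicle. RA was lowest and TSA highest, with no overlap. The difference between groups was -1.73 for RA minus TSA, 1.10 for TSA minus vehicle and -0.63 for RA minus vehicle. In each, a two-sided exact permutation test gave p = 0.1, the smallest that 3 arrays against 3 allow (0.12 adjusted over 6 tests).

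Gclc and Gclm, the subunits of glutamate-cysteine ligase, were compared in the same way. Gclc minus Gclm was -0.14, 0.032 and -0.31 in RA, 1.31, 1.77 and 1.29 in TSA and -0.11, 0.33 and -0.25 in vehicle. Gclc RNA was higher relative to Gclm RNA on all TSA arrays than on any other array, each as a ratio to its own vehicle mean. The amounts of the 2 transcripts or of the subunit proteins cannot be read from these ratios. TSA minus vehicle was 1.46 and RA minus TSA -1.59, each with an exact permutation p = 0.1, while RA minus vehicle was -0.13 (exact permutation p = 0.6; 0.12, 0.12 and 0.6 adjusted over the same 6 tests).

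After group means were removed, Mt1 and Mt2 had r = 0.971 over the 9 arrays. Their deviations were largest on the vehicle arrays, where replicate 3 was low in both genes (ratios 0.393 and 0.582). This r therefore rests mostly on the vehicle arrays. Gclm, whose group means did not follow the others, had r of 0.536 to 0.831 with Mt1, Mt2, Gclc, Nqo1 and Txnrd1 in the same deviations. These are descriptions: the points share arrays, and with them depth and RNA quality. The 3 closest genes given next for each member have the highest r of a search over 8251 genes. Whether they are related to the member was not tested. Before removal of group means, the gene closest to Mt1 over the 9 arrays was Acy1 (aminoacylase, r = 0.995), then Mt2 (0.984) and Gldc (0.984). Nqo1 was closest to Gas6 (0.989), Cdkn1c (0.980) and Tns2 (0.979), and Txnrd1 to Slc10a3 (0.980), the glutathione transferase Gsto1 (0.976) and Phlda3 (0.968). Besides Mt1, Mt2 was closest to Cd63 (0.978) and Acy1 (0.976). Gclc had Lonp2 (0.976), Nabp1 (0.974) and Ezh1 (0.965), Gclm had Trappc4 (0.972), Rest (0.962) and Xab2 (0.961), and Hmox1 had Psmb2 (0.936), Aldh3a1 (0.898) and Robo1 (0.890).

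Lists of related genes were counted in the fit over 8251 genes. Of 159 genes listed beside the members, 126 were measured. In RA 1 rose and 1 fell, 1.59% of the 126 against 1.82% of all genes. With TSA 7 rose and 2 fell, 7.14% against 4.5%, and 3 were higher and 6 lower in RA than in TSA, 7.14% against 4.99%. In the same fit 5 of 7 member genes were lower in RA than in TSA.

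Among 19 measured genes of metal handling, 1 rose in TSA and none fell. This was Mt4, a metallothionein of stratified epithelia, which was 0.418, 0.693 and 0.611 in RA, 3.03, 5.91 and 4.0 in TSA and 1.26, 0.770 and 0.972 in vehicle. TSA stood far above both other groups, and RA lay below vehicle. Mt4 rose by 2.03 ± 0.30 in TSA (limma, adjusted p = 0.0104) and was lower in RA than in TSA by -2.78 ± 0.30 (adjusted p = 0.00190), each past the threshold in 17 of 17 alternatives. RA against vehicle was -0.75 (adjusted p = 0.311). The order of the groups in Mt4 was therefore that of Mt1 and Mt2, while the brain metallothionein Mt3 changed by 0.13 (95% interval -0.35 to 0.62) in TSA. Atox1, a copper chaperone, was the second of 2 genes lower in RA than in TSA (-0.78, adjusted p = 0.0472), with a call that held in 2 of 9 fits without 1 array. Mtf1, which encodes the metal-sensing factor, changed by 0.61 (95% interval -0.34 to 1.56) in TSA and by 0.35 (95% interval -0.61 to 1.30) in RA.

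None of 12 measured regulators of the NRF2 pathway passed in any of the 3 comparisons by limma. Nfe2l2 itself was at -0.34 (95% interval -0.72 to 0.033) in TSA and -0.27 (95% interval -0.65 to 0.10) in RA, and Keap1 at -0.60 (95% interval -1.78 to 0.57) and -0.20 (95% interval -1.37 to 0.97). The smallest adjusted p by limma were those of Nfe2 in RA (0.281), Nfe2l3 in TSA (0.0887) and Mafg in RA against TSA (0.157).

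Of 28 other NRF2 target genes, 2 rose and 1 fell in TSA, and none changed in RA. Gstp1, a glutathione transferase, rose by 1.05 ± 0.20 (limma, adjusted p = 0.0233); it has a close copy, Gstp2, whose RNA its probes may also bind. Srxn1, which repairs oxidised peroxiredoxins, rose by 0.86 ± 0.17 (adjusted p = 0.0287), but its probe sets disagreed, 3.21, 4.87 and 2.65 on the TSA arrays for the first and 1.0, 0.788 and 0.931 for the second. Tkt, transketolase of the pentose phosphate pathway, fell by 0.98 on the log2 scale (adjusted p = 0.0334). With an array omitted, Gstp1 kept its call in 6 of 9 fits, Srxn1 in 3 and Tkt in 2, and with arrays centred on their medians Tkt did not pass (limma, adjusted p = 0.0599). Akr1b8, an aldo-keto reductase, was 0.601, 0.447 and 0.700 in RA, 1.74, 1.66 and 1.77 in TSA and 0.981, 1.03 and 0.986 in vehicle. Its groups did not overlap, with RA lowest and TSA highest. Against vehicle it did not pass (RA -0.75, limma adjusted p = 0.0997; TSA 0.76, adjusted p = 0.0599), and it was lower in RA than in TSA by -1.51 ± 0.19 (limma, adjusted p = 0.00346). The list's median in TSA was 0.20, against -0.15 over all genes.

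In the 29 measured genes of glutathione synthesis and use, 3 rose and 1 fell in TSA. Besides Gstp1, Gpx3 (secreted glutathione peroxidase, 1.03, limma adjusted p = 0.0135) and Mgst3 (microsomal glutathione transferase, 1.59, adjusted p = 0.0138) rose. Gpx7, a peroxidase of the endoplasmic reticulum, fell by 1.48 (adjusted p = 0.0449, held in 2 of 9 fits without 1 array) and was higher in RA than in TSA by 2.22 (adjusted p = 0.00797). In RA, Gpx3 rose by 0.86 (limma, adjusted p = 0.0420) and Glrx, glutaredoxin, fell by 0.87 (adjusted p = 0.0395). With an array omitted, Gpx3 kept this RA call in 0 of 9 fits and Glrx in 1. With arrays centred on their medians, neither Glrx in RA (limma, adjusted p = 0.0600) nor Gpx7 in TSA (adjusted p = 0.0617) passed. Gsto1 was lower in RA than in TSA by -1.89 (adjusted p = 0.0108, held in 8 of 9 fits without 1 array). In TSA the Gpx3 call held in 8 and that of Mgst3 in 7 of those fits.

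Among 12 genes of the thioredoxin and peroxiredoxin system, Srxn1 and Txnip rose in TSA. Txnip, an inhibitor of thioredoxin, rose by 1.14 (limma, adjusted p = 0.0120) and was lower in RA than in TSA by -1.04 (adjusted p = 0.0140), held in 7 and 5 of 9 fits without 1 array. Its probe sets disagreed, 4.33, 7.89 and 5.41 on the TSA arrays for the first and 0.827, 0.685 and 1.13 for the second. The smallest adjusted p of the list in RA was that of Txnl4a, thioredoxin-like by name (-0.74, limma adjusted p = 0.176). Whether Txnl4a acts in this system was not tested. Of 9 genes of superoxide and peroxide removal, Gpx3 passed in both treatments and no other did. Its RA call held in 0 of 9 fits without 1 array. In RA against TSA the closest was Gpx4 (0.71, limma adjusted p = 0.268).

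Among 16 genes of haem and iron, Uros, an enzyme of haem synthesis, rose by 1.07 in TSA (limma, adjusted p = 0.0154) and was lower in RA than in TSA by -0.96 (adjusted p = 0.0202); with an array omitted it kept these calls in 6 and 4 of 9 fits. In RA the closest to the threshold was Tfr2, a transferrin receptor (1.15, limma adjusted p = 0.150). Hmox2, the constitutive haem oxygenase, was at -0.0060 (95% interval -0.40 to 0.38) in TSA. None of 20 AP-1 and ATF4 stress genes passed against vehicle by limma. The closest were Atf4 in TSA (-0.97, adjusted p = 0.0682) and Xbp1 in RA (1.10, adjusted p = 0.0918). Jun (1.97, limma adjusted p = 0.0250) and Xbp1 (1.12, adjusted p = 0.0497) were higher in RA than in TSA, held in 4 and 3 of 9 fits without 1 array. Xbp1 did not pass with arrays centred on their medians (adjusted p = 0.0598). In the fit over probe sets, used for the members, 5 of the calls on list genes with 1 probe set were lost. These were Gpx3 and Glrx in RA and Gpx7 in TSA (limma, adjusted p = 0.0588, 0.0571 and 0.0564). Atox1 and Xbp1 in RA against TSA were the others (0.0629 and 0.0648).

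**Figure D4:**
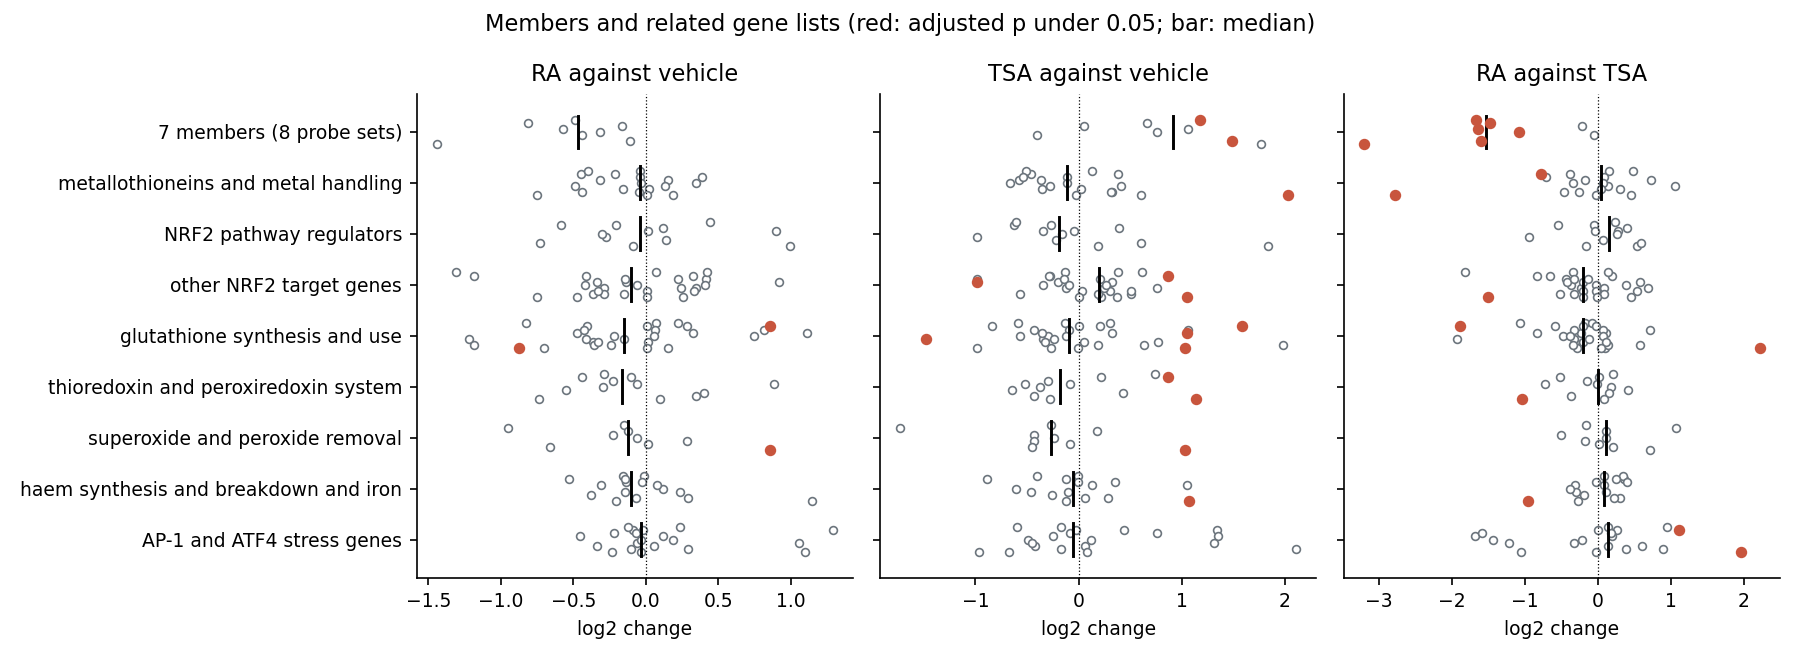
Log2 changes of the 8 member probe sets and of the genes of 8 related lists in RA against vehicle, TSA against vehicle and RA against TSA, 1 point per probe set or gene, red where the adjusted p was under 0.05, with a bar at each median. In RA against TSA 6 of the 8 member points are red, while the medians of the other lists lie between -0.20 and 0.15.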

How the data were processed

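Affymetrix hybridisation was done at a core facility and the data were entered into GeneSpring, per the labels; the sources used here give no signal summary, scaling or versions. The authors deposited ratios on a linear scale. In each of 12488 probe sets the vehicle arrays averaged 1 within 1e-05. Control probe sets (66) were left out. Symbols came from the platform annotation, updated through Entrez IDs with RefSeq (GRCm38.p6): 10833 probe sets had 1 symbol, 396 several and 1193 none. No probe set with several symbols held a member.

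Values were analysed as log2(ratio + 0.05), which understates changes of low values, in 1 limma fit (3.58.1, R 4.3.3) over 9 arrays with 6 residual degrees of freedom and no filter; changed means a Benjamini-Hochberg adjusted p under 0.05. Related lists used a second fit with a gene's probe sets averaged. The fit was also run on simulated data with independent normal noise. That noise held no deviations shared between arrays and no outlying array, so the run does not bear on these. The number of arrays limits the precision. Groups came from sample titles, and members, lists and alternatives were chosen with earlier results of these data known. Named were all members and the 3 genes closest to each member. Also named were every gene of the 8 related lists past the threshold and the smallest adjusted p per such list and comparison. Nfe2l2, Keap1, Mtf1, Mt3 and Hmox2 were named in addition, after their values were seen. Cell type markers were counted, and of these Cnn1, Thy1, Col1a1 and Col5a1 were named after their values were seen.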

Additional observations from a re-analysis of the deposited data

How the results depend on the processing

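Counts of changed probe sets were 169 in RA against vehicle, 432 in TSA against vehicle and 486 in RA against TSA, and 54 to 209, 107 to 494 and 167 to 624 without 1 array; member counts (0, 2 and 6) became 0 to 2, 0 to 3 and 3 to 6. Quantile normalisation gave 87, 108 and 152 in all, with 2 members in RA against TSA. The 6 arrays of a comparison gave 61 in RA and 168 in TSA against vehicle, and the variance trend 111 in RA. Without vehicle replicate 3 and RA replicate 3, RA against vehicle had 98, with 1 member. Centring on array medians gave 4 members in TSA and moved the split of higher and lower probe sets to 148 and 37 in RA (116 and 53 as reported) and to 379 and 82 in TSA (274 and 158 as reported). Array weights, whose estimation stopped before converging and gave vehicle replicate 2 a weight of 21.4, gave 2196, 4494 and 943 in all and 4 members in RA and 5 in TSA against vehicle. Deviations of same-numbered arrays correlated over 0.1 in 4 of 9 pairs, the 3 pairs of replicate 3 (0.19 to 0.29) and replicate 1 of RA and vehicle (0.25), and at -0.032 to 0.072 in the other 5. Differently numbered arrays correlated at -0.30 (RA replicate 1 with vehicle replicate 3) to 0.17 (TSA replicate 2 with vehicle replicate 1). Not every same-numbered pair passed 0.1, so the samples were not treated as paired. Whether the replicate 3 arrays share a cause was not tested. The replicate block gave 141, 438 and 455 and changed no member's call. Of 453 values of member probe sets under alternatives, 409 kept direction and side of the threshold, 24 lost the call, 14 gained it and 6 turned sign, none of these called. Those were the Nqo1 f probe set in RA (0.048 centred, 0.034 quantile, -0.21 to 6.31e-05 without 1 array, the highest without vehicle replicate 1), Gclm in RA against TSA (-0.14 to 0.026 without 1 array, above 0 without RA replicate 2 or TSA replicate 1) and Hmox1 in TSA (-0.099 with array weights). The cause was not tested. The 30% filter on mean ratio removed Gclm. For list genes, chosen after seeing the data, 226 of 340 values kept their call, 114 lost it and none turned sign.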
